A study of Mus musculus with 9 samples.

Results

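The cytosolic ribosomal proteins were described here as 100 gene symbols of the 15372 that were measured above 0 in all 9 libraries of mouse gastrocnemius, the large calf muscle. The symbols begin with Rpl or Rps and a number, or are Rpsa, Rplp0, Rplp1, Rplp2 and Fau; the ribosomal S6 kinases were left out. Of 101 symbols that matched, 1 was listed at 0 in some libraries and was dropped. RefSeq names divided the 100 into 78 genes for ribosomal proteins (46 of the large and 32 of the small subunit), 8 paralogues or retrogenes of them, 12 names of pseudogenes written without their hyphen (such as Rpl341 for Rpl34-ps1), 1 symbol not found in RefSeq (Rps12l2) and 1 gene that encodes no ribosomal protein (Rps19bp1, named for binding RPS19). Despite their pseudogene names, RefSeq lists Rpl34-ps1 and Rpl31-ps12 (here Rpl3112) as protein-coding. Counts below refer to the 78 genes unless the 100 members are named.

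The 3 groups of 3 libraries were vehicle-treated wildtype, vehicle-treated mdx (called mdx vehicle) and mdx treated subcutaneously with 10 mg/kg of GTx-026. Mice of the mdx genotype lack functional dystrophin, the product of Dmd, and serve to model Duchenne muscular dystrophy, and the series' title names androgen receptor agonists as the drugs under study. All animals carry the strain label C57BL/6, the labels give neither age nor sex nor length of treatment, and libraries are not tied to animals by any label; the p-values therefore cover only differences among these libraries, which may be technical. The poly(A) RNA of whole muscle was sequenced on an Ion Torrent Proton, and with whole muscle, fewer cells of a type and less RNA per cell cannot be told apart.

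A cytosolic ribosome joins a small and a large subunit, each made of ribosomal RNA and a set of proteins of which nearly every one is present in a single copy. The mRNAs of these proteins start with a C followed by a run of pyrimidines, the 5′ terminal oligopyrimidine or TOP motif, through which mTORC1 and LARP1 control their translation together with that of several translation factors. Such control acts on how the mRNA is used and need not alter its amount. Skeletal muscle also makes tissue-restricted versions of a few members, of which Rpl3l, the muscle and heart form of the large-subunit protein RPL3, is the best known.

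The pyrimidine run could be read near the annotated starts of many members. RefSeq start windows (GRCm38.p6) were found for 58 of the 78 genes, and 40 of these 58 (69%) held a run of at least 10 C or T bases on the sense strand within 50 bases of either side of the start, against 16.6% of 10220 tested genes with a window and 18% of all 27025 in the table. The letters CTTCCG, searched on both strands over the 250 bases before and 50 after the start, were present in 40 of 58 (69%), against 29.4% of tested genes. Searched in the same way, AAGATGG was present in 15.5% against 7.52%, and GGGCGG in 60.3% against 61.1%. TATAAA, searched on the sense strand in the 50 bases before the start, was present in 0 of 58, against 1.63%. In the windows of Rplp0 and Rps2 below, these letters lie after the annotated start, outside the stretch searched. A match is a description of the letters, not a site. The windows below run from 30 bases before to 25 bases after the start and show members that the results turn on, with the longest run of C and T in capitals where it reaches 8 bases.
Fau: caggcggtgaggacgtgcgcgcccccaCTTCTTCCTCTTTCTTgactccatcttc
Rps6: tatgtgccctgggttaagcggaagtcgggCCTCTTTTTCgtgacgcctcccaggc
Rps27: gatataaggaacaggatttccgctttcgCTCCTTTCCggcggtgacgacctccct
Rpl22l1: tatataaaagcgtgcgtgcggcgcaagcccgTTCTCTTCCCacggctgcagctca
Rplp0: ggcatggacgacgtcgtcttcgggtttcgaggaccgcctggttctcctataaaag
Rps2: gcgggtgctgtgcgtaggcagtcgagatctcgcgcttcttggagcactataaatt
Rpl3l: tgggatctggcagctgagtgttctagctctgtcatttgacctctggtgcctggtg
Fau (chr19:6057917-6057971, plus strand) holds a run of 16 pyrimidines, Rps6 (chr4:86857343-86857397, minus strand) and Rpl22l1 (chr3:28805478-28805532, plus strand) one of 10 each, and Rps27 (chr3:90213624-90213678, minus strand) one of 9. Rplp0 (chr5:115559437-115559491, plus strand), Rps2 (chr17:24720033-24720087, plus strand) and Rpl3l (chr17:24727796-24727850, plus strand) show no run of 8 in this window. In Rps2 a run of 10 lies further downstream of the annotated start, whereas Rpl3l has none within 50 bases on either side. Rps2 and Rpl3l are also neighbours, with the starts used here 7.76 kb apart on chromosome 17. The Rps2 start used (24720063) lies inside the RefSeq span of the gene (24718121 to 24721927). A start at the beginning of that span was not read.

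Before the comparisons, 3 libraries have to be set apart: library 1 of wildtype vehicle, library 1 of mdx vehicle and library 2 of GTx-026. Each had the highest level of its group for most ribosomal protein genes: 73, 73 and 62 of the 78. Library 1 of wildtype vehicle was highest in its group for 38.7% of all tested genes, library 1 of mdx vehicle for 36.9% and library 2 of GTx-026 for 30.5%. All 3 were highest together for 57 of the 78 (73.1%), against 11.1% of all tested genes. The 3 libraries were picked from the levels of these same ribosomal protein genes. The shares set beside all tested genes are therefore a description and not a test. The pattern was the same when libraries were scaled by the median of ratios (56 of 78 against 11.2%) and was found in 71 of 78 genes on the deposited scale (24.6% of all genes). Each library's level is printed below as CPM, the usual depth-normalised read number, after rescaling of the libraries.

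The size of this shift was similar in both subunits. The median log2 difference of the 78 genes from their mean over the 9 libraries was 0.33, −0.14 and −0.09 in wildtype vehicle libraries 1 to 3. It was 0.36, −0.07 and −0.22 in the mdx vehicle libraries, and −0.14, 0.16 and −0.11 in the GTx-026 libraries. One library of each group lay above 0 and those remaining below it. In mdx vehicle library 1 the large-subunit genes had a median of 0.31 and the small-subunit genes of 0.40; in wildtype vehicle library 1 these were 0.31 and 0.33. Summed over the 78 genes, ribosomal protein mRNA took 2.45%, 1.63% and 1.73% of the wildtype libraries and 3.20%, 1.73% and 1.67% of the mdx vehicle libraries. In the GTx-026 libraries it took 1.66%, 2.31% and 1.94%. These are shares of each library's own total, which the rescaling does not enter. After rescaling the sums were 23890 CPM in wildtype vehicle library 1, 24570 in mdx vehicle library 1 and 21433 in GTx-026 library 2.

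**Figure D1:**
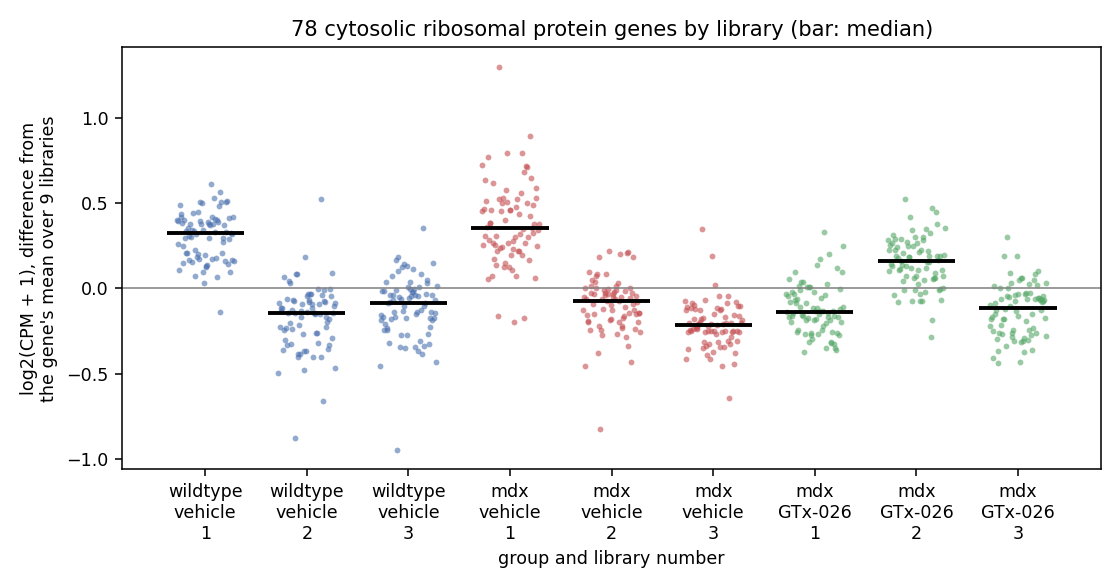
Difference of each of the 78 ribosomal protein genes from its own mean over 9 libraries, in log2(CPM + 1), by library; 1 point is 1 gene, the black bar is the median, and colours mark the 3 groups. Library 1 of wildtype vehicle (median 0.33), library 1 of mdx vehicle (0.36) and library 2 of GTx-026 (0.16) stand above the others, whose medians lie between −0.22 and −0.07.

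A few members did not follow the others. In mdx vehicle library 1, Rpl3 stood highest above its own mean, while Rplp0, Rps2 and Rpl29 lay below theirs. Rps2, a core protein of the small subunit, had 1094, 1732 and 1538 CPM in the wildtype libraries, 1068, 987.1 and 1169 in mdx vehicle and 1384, 986.6 and 1085 in GTx-026, and was thus lowest where most others were highest in 2 of the 3 groups. Rps27, whose product carries a zinc finger, followed the shift strongly, with 262.1, 208.3 and 194.1 CPM in wildtype, 435.4, 173.1 and 196.2 in mdx vehicle and 186.3, 320.0 and 224.6 in GTx-026. Promoter windows with and without the pyrimidine run gave close medians: the 40 with the run had medians of 0.33, 0.34 and 0.15 in the 3 libraries that stood apart, and the 18 without it 0.36, 0.41 and 0.17. Among 671 other genes with the run at 20 CPM or more the medians were −0.03, −0.18 and −0.06. The run was counted anywhere within 50 bases of the annotated start, so this split does not separate genes with and without a TOP motif. Rps27, with a run of 9, fell among the 18 without it. Rps2, whose run lies further downstream, fell among the 40 with it.

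Some leukocyte genes moved with these 3 libraries and others did not. Of 18 lymphoid markers listed, 2 carried a symbol in the table used here, Cd52 and Coro1a, both also made by other leukocytes; the other 16 were not among its symbols. Cd52, a leukocyte surface glycoprotein, had 37.8, 5.0 and 1.0 CPM in wildtype, 110.2, 2.1 and 5.8 in mdx vehicle, and 3.9, 26.2 and 4.3 in GTx-026. Coro1a, a leukocyte actin-binding protein, had 92.7, 12.2 and 2.6, then 261.3, 6.3 and 13.9, then 11.1, 74.8 and 13.4 CPM. Summed, both markers thus ran from 3.60 to 130.5 CPM in wildtype, from 8.41 to 371.6 in mdx vehicle and from 15.04 to 101.1 in GTx-026, and were highest in the same libraries as the ribosomal proteins. The 12 measured of 14 macrophage markers summed to 125.8, 149.1 and 59.0 CPM in wildtype. They summed to 1037, 155.8 and 566.9 in mdx vehicle and 418.1, 432.2 and 655.8 in GTx-026. Only in mdx vehicle were these markers highest in the same library as the ribosomal proteins.

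Fibre and fat markers varied too. The 9 slow-fibre markers, all measured, summed to 1258, 11533 and 3971 CPM in wildtype, 407.8, 9596 and 6818 in mdx vehicle and 1063, 2496 and 15246 in GTx-026, so library 1 was the lowest in every group. The 3 measured of 5 adipocyte markers summed to 1003, 31.7 and 15.4 CPM in wildtype, 48.8, 4.34 and 456.6 in mdx vehicle, and 94.2, 516.9 and 108.9 in GTx-026. The 10 skeletal muscle markers took 14.8% to 21.8% of each library, as the tissue label says. The part of leukocyte, fibre or fat content in the ribosomal protein levels was not tested.

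Other genes of like length had lower medians than the ribosomal proteins in both library 1 of wildtype vehicle and library 1 of mdx vehicle. In GTx-026 library 2 the shorter of these other genes were raised as well. Among genes of 500 to 700 bases, the 21 ribosomal protein genes had median differences of 0.33, 0.32 and 0.16 in wildtype vehicle library 1, mdx vehicle library 1 and GTx-026 library 2. In the same libraries, 150 other genes at 20 CPM or more had 0.07, −0.26 and 0.15. Below 500 bases the 19 ribosomal protein genes had 0.38, 0.40 and 0.23, and 49 other genes 0.08, −0.27 and 0.12. At 700 to 1000 bases, 22 ribosomal protein genes had 0.12 in GTx-026 library 2 and 314 other genes 0.07. At 1000 to 2000 bases, 14 ribosomal protein genes had 0.17 there and 1246 other genes 0.02. From 2000 bases on, 2 ribosomal protein genes had −0.05 and 3264 other genes −0.07. The part of transcript length in the GTx-026 value was not tested. Other lists of the translation machinery had lower medians, apart from the snoRNA hosts in mdx vehicle library 1. The 40 measured ribosome biogenesis factors had medians of −0.02, −0.08 and −0.03 in the 3 libraries, and 20 translation factors whose mRNAs carry the TOP motif had −0.05, −0.03 and −0.08. The 7 measured noncoding snoRNA host genes, which are TOP transcripts as well, had 0.08, 0.54 and 0.07. The plot of list medians by library shows the ribosomal proteins above the factor lists in these 3 libraries.

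**Figure D2:**
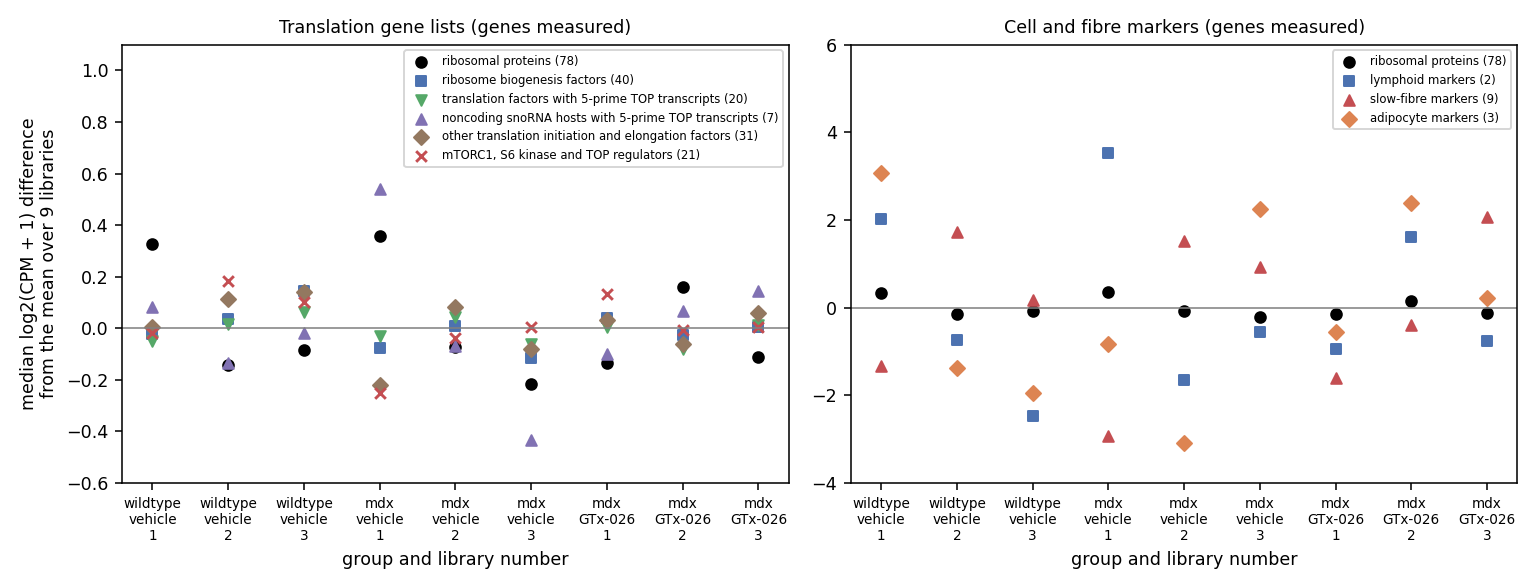
Left, median log2(CPM + 1) difference from the mean over 9 libraries for the ribosomal proteins and 5 lists of translation genes; right, the same for the ribosomal proteins and 3 marker lists, on a wider axis; legends give the number of genes measured. Biogenesis and TOP translation factors stay within 0.15 of 0 in all 9 libraries, whereas the 2 lymphoid markers reach 2.02, 3.52 and 1.61 in the libraries where the ribosomal proteins are high.

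The level of single members spanned a wide range. Per kb of transcript (the record with the highest signal divided by the shortest consensus coding transcript in GENCODE), the stalk protein gene Rplp1 was the highest at a mean of 1650 CPM per kb over 9 libraries, followed by Rplp0 (1293), Rpl23a (1197), Rps12 (1165) and Rpl41 (1069). Rplp0, Rplp1 and Rplp2 encode the acidic stalk that recruits translation factors to the large subunit, and Rpl23a sits at the exit of the peptide tunnel. At the other end were Rpl3 at 56.0, Rps20 at 93.3 and Rpl22 at 100.02 CPM per kb; the Rps20 value rests on an annotated length of 3706 bases and may understate its level. Many of these sequences have processed copies in the genome: a median of 35.5% of the 50-base words of the 78 genes also occur in another annotated gene, and in 21 of 78 more than 50% do. The sources used here do not say how reads with several matches were counted, and levels of such genes are uncertain. Of the 6 genes with less than 10% of shared words, mdx vehicle library 1 was highest in its group in 6, wildtype vehicle library 1 in 5 and GTx-026 library 2 in 3, the last a lower share than its 62 of 78.

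Between mdx vehicle and wildtype vehicle no ribosomal protein gene passed the test. Of the 100 members 0 were called at an adjusted p under 0.05 (limma, Benjamini-Hochberg over 15372 genes), against 0.338% of all tested genes, and 1 had an unadjusted p under 0.05, against 12.7%. The median log2 fold change of the 78 was −0.01, with 35 above and 43 below 0 (51.1% of all tested genes were above), beside a median of 0.01 over all tested genes. Values ran from −0.41 (Rps2) to 0.77 (Rpl3), with a median standard error of 0.22. Groups failed to overlap in 0 members that were higher (7.97% of all genes) and 2 that were lower (8.49%), among them the pseudogene name Rpl3112.

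The signs in that comparison depended on single libraries. Without mdx vehicle library 1, 8 of the 78 were higher and 70 lower in mdx vehicle, where 49.3% of all genes were higher, with a median of −0.17; 0 of the 100 members were called, against 0.371% of all genes, and 3 had an unadjusted p under 0.05 (10.7% of all genes). Those 3 were Rpl30, Rps23 and Rpl3112, of which Rpl30 had the lowest adjusted p by limma (0.363). The median was 0.13 with either mdx vehicle library 3 or wildtype vehicle library 1 left out, and without mdx vehicle library 2 it was 0.05. With the highest library in Cd52 and Coro1a left out of every group, a choice made after the data were seen, the median was −0.04. The libraries left out are the 3 set apart above for their ribosomal protein levels, so this choice is not independent of the median. Without them 0 members were called, against 0.0716% of all genes, and 5 had an unadjusted p under 0.05, against 13.4%.

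The stalk and the regulatory members showed no call either. Rplp0 had 1349, 1013 and 1118 CPM in wildtype, 902.2, 1045 and 957.0 in mdx vehicle, and 931.3, 983.9 and 1081 in GTx-026, and the groups overlapped. Its log2 fold change for mdx vehicle against wildtype was −0.25 (SE 0.19). Rplp1 (624.9, 444.6 and 474.8 CPM in wildtype; 596.2, 478.4 and 388.4 in mdx vehicle; 439.2, 565.1 and 390.1 in GTx-026) and Rplp2 (572.6, 350.5 and 372.6; 393.0, 310.4 and 362.7; 422.1, 355.4 and 288.8) overlapped likewise. Rps6, whose protein is the substrate for which the S6 kinases are named, had 187.2, 121.8 and 132.6 CPM in wildtype, 216.4, 141.2 and 125.2 in mdx vehicle and 137.5, 161.0 and 144.8 in GTx-026. Its differences of 0.11 (mdx vehicle) and 0.03 (GTx-026) against wildtype had an SE of 0.23.

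Rpsa and Fau make proteins with a second known role or origin. Rpsa, the small-subunit protein also known as a laminin receptor, had 476.5, 401.8 and 429.2 CPM in wildtype, 553.7, 356.7 and 374.4 in mdx vehicle and 394.7, 544.4 and 350.4 in GTx-026. Fau, which encodes a ubiquitin-like protein fused to RPS30, had 223.5, 119.5 and 123.3, then 280.1, 154.6 and 160.8, then 165.3, 206.1 and 145.0 CPM. In both genes the library that stood apart was the highest of its group. The log2 fold change of Fau for mdx vehicle against wildtype was 0.36 with all libraries and 0.08 without mdx vehicle library 1 (limma, adjusted p = 0.631 and 0.950).

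GTx-026 against vehicle in mdx muscle gave no call among the members. Of the 100 members 0 passed, against 0.013% of all genes, 0 had an unadjusted p under 0.05, against 3.17%, and in 0 members did the groups fail to overlap, against 3.67% of all genes for higher and 3.13% for lower values. The median log2 fold change of the 78 was −0.05, with 20 higher and 58 lower (51.1% of all genes were higher), and all values lay between −0.28 (Rpl39) and 0.16 (Rps9). Without mdx vehicle library 1 the sign turned: 67 were higher and 11 lower, where 50% of all genes were higher, with a median of 0.11. Again 0 members were called, against 0.00651% of all genes, and 0 had an unadjusted p under 0.05, against 3.59%. The members with the largest differences over all libraries were Rps15a4 (−0.37, SE 0.32), Rpl39 (−0.28, SE 0.23), Rps20 (−0.26, SE 0.21) and Rps12l2 (−0.24, SE 0.26) on the low side. On the high side they were Rps19bp1 (0.28, SE 0.19), Rpl3l (0.19, SE 0.25), Rps9 (0.16, SE 0.25) and Rps14 (0.16, SE 0.22). All were within the spread of the libraries.

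GTx-026 against wildtype vehicle shares its wildtype libraries with the first comparison and its treated libraries with the second. Of the 100 members 0 were called, against 1.48% of all genes, and 2 had an unadjusted p under 0.05, against 12.5%. The median of the 78 was −0.05 (29 higher, 49 lower, where 50.4% of all genes were higher). It was −0.06 without mdx vehicle library 1, which enters this comparison only through the scaling of the libraries and the pooled spread. Without that library too 0 members were called, against 2.43% of all genes, and 1 had an unadjusted p under 0.05, against 15.4%. The median was 0.07 without wildtype vehicle library 1, and 0.0022 and 0.02 without GTx-026 libraries 1 and 3. Groups failed to overlap in 6 members that were lower, against 9.23% of all genes, among them Rpl4, Rpl15, Rpl30, Rps20 and the pseudogene name Rps15a4. They failed to overlap in 1 that was higher, Rps19bp1, against 11.5%. Each of these comparisons is shown in the plot of fold changes with and without mdx vehicle library 1.

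**Figure D3:**
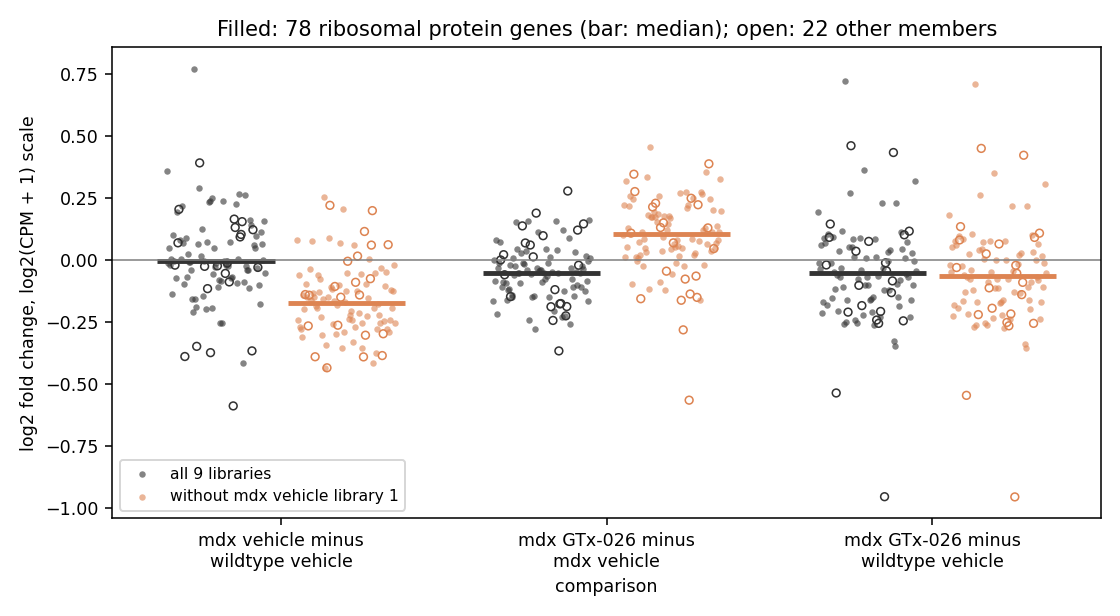
Log2 fold change of the 100 members in the 3 comparisons, on the log2(CPM + 1) scale, with all 9 libraries (dark) and without mdx vehicle library 1 (orange); filled points are the 78 ribosomal protein genes, open points the 22 other members, and bars the medians of the 78. The median moves from −0.01 to −0.17 in the first comparison and from −0.05 to 0.11 in the second when that library is left out.

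No single member of the third comparison passed the adjusted threshold, and 2 had an unadjusted p under 0.05 (limma), against 12.5% of all genes. Rps20, a small-subunit protein gene, had 299.5, 196.5 and 187.8 CPM in wildtype and 177.3, 177.4 and 171.1 in GTx-026, with 243.1, 233.0 and 162.9 in mdx vehicle. The GTx-026 libraries lay below all wildtype libraries, with a log2 fold change of −0.34 (SE 0.21; limma, adjusted p = 0.590). Rpl41, which encodes the shortest ribosomal protein, had 280.5, 212.1 and 226.6 CPM in wildtype, 299.7, 242.2 and 312.8 in mdx vehicle and 270.4, 339.0 and 313.8 in GTx-026. Its log2 fold change for GTx-026 against wildtype was 0.36 (SE 0.17; limma, adjusted p = 0.430), and the groups overlapped. Rps19bp1, listed by its symbol though it is no ribosomal protein, had 6.9, 6.0 and 7.3 CPM in wildtype, 7.0, 9.1 and 6.8 in mdx vehicle and 10.99, 10.3 and 7.4 in GTx-026, a log2 fold change of 0.43 (SE 0.19; limma, adjusted p = 0.376).

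Rpl3 had the widest range between libraries of the 78 genes, on the log2 scale. RPL3 lies close to the peptidyl transferase centre, and RPL3L takes its place in ribosomes of adult striated muscle. Rpl3l had 378.9, 416.3 and 556.5 CPM in wildtype, 250.9, 455.4 and 353.3 in mdx vehicle and 482.2, 361.2 and 344.1 in GTx-026. Rpl3 had 96.2, 40.8 and 38.8 CPM in wildtype, 188.7, 42.3 and 96.7 in mdx vehicle, and 67.8, 109.6 and 93.9 in GTx-026. The muscle form was the more abundant of the pair in every library, and Rpl3 was lowest in 2 wildtype libraries and in mdx vehicle library 2.

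Per kb, Rpl3l made up 84.1%, 93.8% and 95.3% of the pair in wildtype, 62.7%, 93.6% and 83.2% in mdx vehicle and 90.2%, 81.8% and 83.4% in GTx-026. The means were 91.0% ± 6.1 (SD, n = 3), 79.8% ± 15.7 and 85.1% ± 4.5. The difference of −11.2 percentage points between mdx vehicle and wildtype had an exact two-sided permutation p of 0.2, where the smallest p possible with 3 against 3 is 0.1, and it was −2.7 points without mdx vehicle library 1. The log2 fold changes for mdx vehicle against wildtype were 0.77 (SE 0.51) for Rpl3 and −0.37 (SE 0.25) for Rpl3l, and neither passed the test (limma, adjusted p = 0.550 and 0.556). Without mdx vehicle library 1 they were 0.25 and −0.15. Of the 50-base words of Rpl3, 67.1% also occur in another gene, mostly in a processed copy, whereas Rpl3l shares none.

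**Figure D4:**
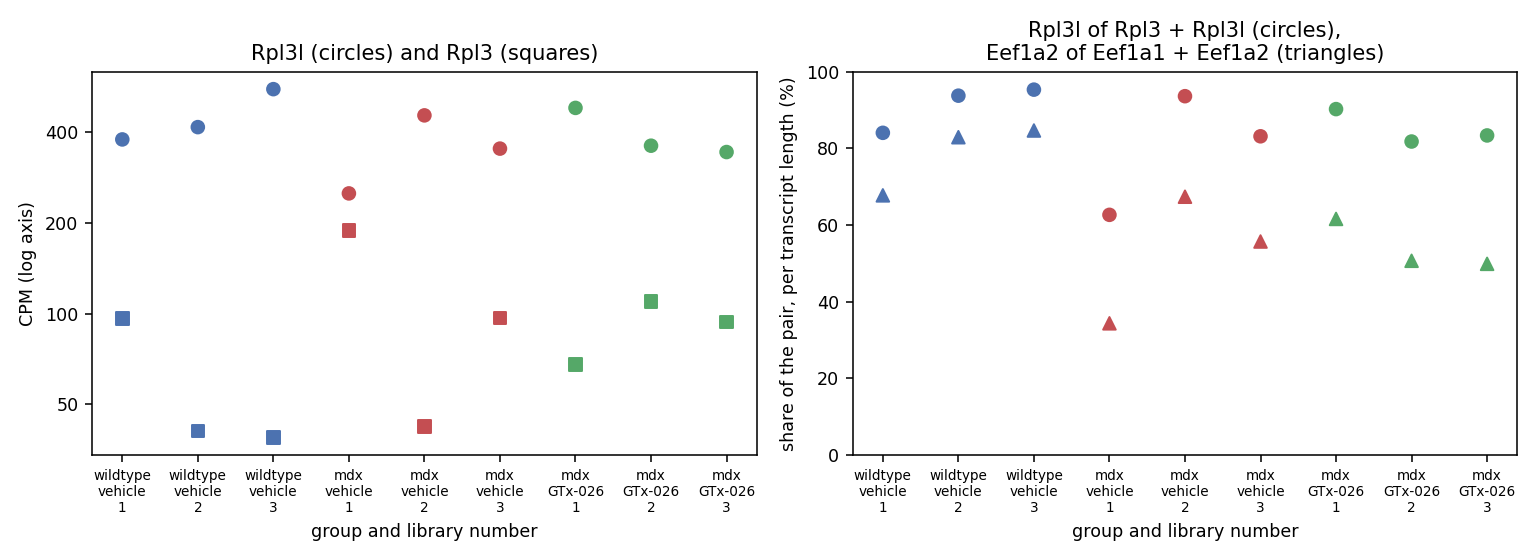
Left, CPM of Rpl3l (circles) and Rpl3 (squares) in each library, log axis; right, share of Rpl3l in the sum of Rpl3 and Rpl3l (circles) and of Eef1a2 in the sum of Eef1a1 and Eef1a2 (triangles), per transcript length, in percent; colours mark the groups. Library 1 of mdx vehicle has the lowest share of both muscle forms (62.7% and 34.4%), and both shares are highest in wildtype libraries 2 and 3.

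For the other paralogues too, the exact tests of shares could not reach 0.05, since 3 against 3 libraries allow no p below 0.1. Rpl22l1, the paralogue of Rpl22, had 49.8, 28.2 and 32.7 CPM in wildtype, 27.1, 34.6 and 21.3 in mdx vehicle and 20.03, 29.7 and 24.4 in GTx-026. Its log2 fold change for GTx-026 against wildtype was −0.54 (SE 0.25; limma, adjusted p = 0.422), and its share of the pair per kb was 36.8% ± 5.5, 32.7% ± 4.2 and 30.4% ± 4.0 in the 3 groups (SD, n = 3). Rpl36al made up 51.9% ± 1.0 of its pair with Rpl36a in wildtype, 51.5% ± 2.5 in mdx vehicle and 56.7% ± 4.2 in GTx-026. Rpl7l1, a nucleolar protein that helps to build the large subunit, made up 8.7% to 12.0% of its pair with Rpl7 in the 9 libraries. Rps27l, a p53-responsive copy of Rps27, made up 14.8% ± 0.4, 11.2% ± 4.9 and 12.3% ± 4.3, with its lowest share, 7.0%, in mdx vehicle library 1. Rps4l, which RefSeq lists as a transcribed pseudogene, stayed between 1.5 and 2.9 CPM. In 21 tests of pair shares, which include the Eef1a pair below, the lowest exact two-sided permutation p was 0.1, and after Benjamini-Hochberg adjustment it was 0.6. Rpl10l, Rpl26l and Rpl39l, the other paralogues looked for, were not among the members.

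The pseudogene names held the largest single difference. Rps15a4, which matches the RefSeq name Rps15a-ps4, had 8.8, 4.9 and 4.7 CPM in wildtype, 2.5, 5.9 and 3.0 in mdx vehicle and 1.6, 3.7 and 2.6 in GTx-026. All GTx-026 libraries lay below all wildtype libraries, with a log2 fold change of −0.95 (SE 0.32), which did not pass (limma, adjusted p = 0.237, and 0.170 without mdx vehicle library 1). Of its 50-base words 42.6% occur in another gene, most of them in Rps15a, which had 162.6, 143.4 and 144.5 CPM in wildtype and 112.2, 159.9 and 146.2 in GTx-026. Rpl341 had 28.1, 13.1 and 12.9 CPM in wildtype, 28.6, 20.3 and 19.4 in mdx vehicle and 21.3, 26.2 and 23.5 in GTx-026, and all of its words occur elsewhere. Its parent gene Rpl34 had 227.0, 150.7 and 157.4, then 283.0, 183.3 and 190.1, then 188.0, 237.4 and 213.1 CPM, with the highest value of each group in the same library as its copy. Reads of a parent gene and of its copy cannot be told apart where words are shared.

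The other translation genes likewise gave 0 calls in all 3 comparisons with all libraries. The lists had been drawn up for their roles: 41 ribosome biogenesis factors (40 measured), 21 translation factors with TOP mRNAs (20 measured), 9 noncoding snoRNA hosts (7 measured), 31 other initiation and elongation factors (31 measured), and 22 genes of mTORC1, the S6 kinases and TOP regulation (21 measured). For mdx vehicle against wildtype, 28 of 31 other initiation and elongation factors, 28 of 40 biogenesis factors and 16 of 21 mTORC1 genes had values below 0, with medians of −0.15, −0.12 and −0.14. For GTx-026 against mdx vehicle, 25 of 31, 25 of 40 and 13 of 21 had values above 0, with medians of 0.15, 0.07 and 0.09. Both comparisons share the mdx vehicle libraries; without library 1 of that group the medians were −0.09, −0.09 and −0.11 in the first and 0.04, 0.07 and 0.01 in the second.

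Eef1a1 stood out among the TOP translation factors. It encodes the elongation factor that brings aminoacyl-tRNA to the ribosome, and adult muscle fibres use mainly its paralogue Eef1a2. Eef1a1 had 620.6, 302.9 and 266.8 CPM in wildtype, 1497, 642.3 and 953.6 in mdx vehicle and 975.7, 1047 and 1133 in GTx-026. Every mdx library, treated or not, lay above every wildtype library. The log2 fold change was 1.39 (SE 0.37) for mdx vehicle and 1.51 (SE 0.37) for GTx-026 against wildtype (limma, adjusted p = 0.195 and 0.092). Without mdx vehicle library 1 these were 1.08 and 1.496, and the second then passed the test (limma, adjusted p = 0.282 and 0.0412). Over 20 alternatives the adjusted p of the second (limma) ran from 0.031 to 0.330 and was under 0.05 in 4. The 0.031 came from the alternative chosen after the data were seen, without the library of each group highest in Cd52 and Coro1a.

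The share of Eef1a2 in the Eef1a pair, a pair chosen after its values were seen, is given per kb. It was 67.7%, 82.9% and 84.7% in wildtype, 34.4%, 67.4% and 55.7% in mdx vehicle and 61.6%, 50.7% and 49.9% in GTx-026. The mean difference from wildtype was −25.96 percentage points in mdx vehicle and −24.4 in GTx-026, each with the smallest exact two-sided permutation p possible, 0.1. Macrophage markers, 12 of 14 measured, summed to 59.0 to 149.1 CPM in wildtype, 155.8 to 1037 in mdx vehicle and 418.1 to 655.8 in GTx-026, and fibroblast markers, all 10 measured, to 524.6 to 775.3, 700.5 to 1600 and 1050 to 1745 CPM. Their part in the Eef1a1 values was not tested.

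Further genes named by the same rule stayed below the threshold. Eif4ebp1, the translation repressor that mTORC1 phosphorylates, had 51.3, 47.0 and 39.0 CPM in wildtype, 36.2, 47.1 and 47.7 in mdx vehicle, and 57.6, 62.8 and 73.0 in GTx-026. Its GTx-026 libraries lay above all others, with log2 fold changes of 0.55 (SE 0.16) against mdx vehicle and 0.49 (SE 0.16) against wildtype, with adjusted p-values of 0.9996 and 0.229 (limma). Tfeb, a lysosomal transcription factor held in the cytoplasm by mTORC1, had a log2 fold change of −0.62 (SE 0.18) for GTx-026 against wildtype (limma, adjusted p = 0.152). Snhg1, a snoRNA host, had 3.7, 3.7 and 3.5 CPM in wildtype, 13.5, 6.9 and 4.4 in mdx vehicle and 5.3, 7.4 and 7.7 in GTx-026, with a log2 fold change of 0.90 (SE 0.31) for mdx vehicle against wildtype, which was 0.51 without mdx vehicle library 1 and 1.22 without library 3. Among biogenesis factors the largest value was that of Rrp12 (−0.54, SE 0.24, for mdx vehicle against wildtype; −0.26 without mdx vehicle library 1), and among the other factors that of Etf1, the release factor (−0.46, SE 0.15).

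Dmd had 41.4, 60.03 and 51.0 CPM in wildtype, 11.4, 21.7 and 21.7 in mdx vehicle and 17.5, 14.2 and 18.002 in GTx-026, lower in all 6 mdx libraries than in any wildtype library. In the authors' deposited table, 0 of 171 records of the members had a deposited p-value under 0.05 in any comparison. The share among all records of the authors' deposited table was 6.01% for wildtype against mdx vehicle, 1.94% for mdx vehicle against GTx-026 and 9.32% for wildtype against GTx-026.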

How the data were processed

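The deposited signal is a scaled read number for each of 46442 sequence records in 9 libraries. The submitters' processing notes name GRCm38.p3 as the build and, as tools, DESeq2 1.6.3, HTSeq 0.6.1p1, TopHat2 2.0.13, SAMtools 0.1.19 and Bowtie2 2.2.4; the sources used here give neither settings nor strandedness. The authors' mean signal per group, a ratio of such means and a p-value per pair of groups are deposited beside it, per the file headers. Columns could be assigned to groups but not to single samples. The signal lay on whole multiples of a step in each library, which puts the listed reads at 25.1 M to 38.0 M; it was not accepted as counts, so no count test was run.

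Records above 0 in all 9 libraries were summed by symbol. Scaling used trimmed means of log ratios between libraries (30% and 5% trimmed; factors 0.874 to 1.30) and values were tested with limma 3.58.1 in R 4.3.3 on log2(CPM + 1), with a trended prior, in 1 model of all 9 libraries, two-sided. P-values were adjusted over all 15372 genes with a threshold of 0.05. Log2 fold changes on this scale understate those of low genes. Scripts were tested on simulated data. The members and gene lists were chosen with earlier results of these data known. Named were the paralogues with their partners, the stalk genes, Rpsa, Fau, Rps6, Rps19bp1 and Dmd, the members of highest level, the 4 largest rises and falls of each comparison, and from each list the 2 largest differences. Words of 50 bases came from GENCODE M21 transcripts. Values of 1 member are not reported here.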

Additional observations from a re-analysis of the deposited data

How the results depend on the processing

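The 3 counts of called members were 0 under all 20 alternatives tried. Of these, 1 was chosen after the data were seen: without the library of each group highest in Cd52 and Coro1a. Calls among all genes were few too. For mdx vehicle against wildtype vehicle they were 5 with compared groups only and 93 without mdx vehicle library 2. For GTx-026 against mdx vehicle they were 0 without GTx-026 library 1 and 4 on the deposited scale. For GTx-026 against wildtype vehicle they were 45 without wildtype vehicle library 3 and 374 without mdx vehicle library 1. With such shares, 0 calls among 100 members says little about them. The sign of the median log2 fold change of the 78 genes depended on single libraries: with 1 left out it ran from −0.17 to 0.13 for mdx vehicle against wildtype vehicle, from −0.17 to 0.11 for GTx-026 against mdx vehicle and from −0.15 to 0.07 for GTx-026 against wildtype vehicle. On the deposited scale the medians were 0.18, −0.12 and 0.06, where the median of all genes also shifted, to 0.16, −0.06 and 0.10. The Rpl3l share difference between mdx vehicle and wildtype vehicle ran from −18.1 to −2.7 points with 1 library left out. Of 54 named fold changes, those of Rpl3l, Snhg1 and Snhg12 in GTx-026 against mdx vehicle turned sign. With 1 library left out Rpl3l ran from −0.044 (without mdx vehicle library 1) to 0.39, Snhg1 from −0.47 to 0.23 and Snhg12 from −0.39 to 0.021, and Snhg1 was 0.16 in the alternative chosen after the data were seen. The cause was not tested. No paired analysis was possible because neither labels nor columns tie a library of one group to one of another. The smallest p that 3 against 3 libraries allow in an exact test is 0.1.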
